A study of Bos taurus with 12 samples.

Results

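Complement is a cascade of plasma and tissue proteins in which C3 is the shared centre. In the alternative pathway, C3 that has reacted with water or sits on a surface binds factor B, the protease factor D cuts the bound factor B, and the resulting convertase cuts more C3 into the fragments C3a and C3b. Soluble and membrane-bound regulators take the convertase apart or destroy C3b, while receptors on leukocytes sense C3a and C5a. In the mammary gland these proteins belong to innate defence and are also found in milk.

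The genes described here are C3 itself and the alternative pathway genes around it. These are CFB and CFD, which act in making the convertase, the regulators CFI, CD46, CD55 and CD59, and the anaphylatoxin receptors C3AR1 and C5AR1. They were taken by name, through the RefSeq transcript that the array design assigns to each probe, and made up 9 of the 12787 genes with a probe. They held 31 probes, of which 21 probes in 6 genes were tested. The 3 genes without a tested probe were CD55, C3AR1 and C5AR1.

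Mammary tissue of lactating Holstein cows was profiled on 1-colour (Cy3) bovine oligonucleotide arrays. Group CONT held 6 arrays from day 0, when the cows ate a lactation diet freely, and group REST held 6 arrays from day 6 of feed restriction, when the allowance covered 50% of the calculated requirement of net energy for lactation. The labels name 6 cows with 1 array in each period, numbered cow 1 to cow 6 here, and no cows stayed on full feed in parallel, so feeding level and time in the experiment cannot be told apart. Per the methods of the study, biopsy sites alternated between the sides of the rear udder. The methods also state that 1 Holstein cow was excluded for mastitis, and the series description counts 5 cows, but the labels mark no array, so values are given below with and without individual cows. A biopsy mixes epithelium, fat, vessels, stroma and blood cells, and fewer cells of a type and less RNA per cell cannot be told apart in such samples.

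The arrays lay 4 to a slide on 3 slides, with both arrays of a cow on the same slide. Signal differed between slides: the array's 75th percentile stood at 252.5 to 390 intensity units for cows 1 to 4 and at 73.2 to 116.9 for cows 5 and 6, where 41.9% to 48% of the non-control spots were well above background, against 61.8% to 67.9% on the other slides. In 6 of 6 cows the REST array had the larger 75th percentile, and in 5 of 6 it had the larger share of such spots. Levels below are log2 processed signal minus that array's 75th percentile, and a change is the REST level minus the CONT level, so that 1 unit is a doubling. "Called" means an adjusted p under 0.1 (limma with the cow as a block, Benjamini-Hochberg over all 19406 tested probes). The epithelial tissue was as labelled by its markers: the milk protein genes CSN1S1, CSN1S2, CSN3 and LALBA and the epithelial genes KRT8, KRT18 and EPCAM were well above background on all 12 arrays.

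C3, CFB and CFD were higher in REST on every tested probe. CFI and CD46 were called higher on the probe used for the gene, but CFI changed by 0.03 with another background correction (adjusted p = 0.907) and the other 3 CD46 probes changed by 0.01 to 0.07. CD59 did not pass the test. The rises of the probe with the highest signal in each gene were 1.62 for C3, 0.84 for CFB, 0.78 for CFD, 0.51 for CFI and 0.29 for CD46. Of the 6 tested genes, 5 were called, all higher in REST, beside 16.2% of the 7932 tested genes called and 6.95% called higher. The genes were chosen with earlier results of these data known, so the shares in this paragraph are a description. CFI entered the test through REST, since it was not well above background on all CONT arrays, so the genes are read against the rest without it. Of the 5 genes well above background on all 12 arrays, 4 were called with only such probes tested, all higher in REST, against 18.2% called and 7.21% called higher among the 7352 genes of that kind. Their median change was 0.78, against -0.02, and the mean was higher in REST in 5 of 5, against 46.9%. C3, CFB and CFD were higher in 6 of 6 cows, a pattern found in 7.30% of those genes. Without the cow as a block, 1 of the 6 genes was called, C3, against 4.41% of all tested genes in either direction and 1.60% called higher, and with the cow as a random block 3 were called (C3, CFD and CD46), against 18.3% and 7.90%. Of the 21 tested probes, 17 were called, all higher in REST (16.0% of all tested probes were called, 7.22% higher), and 11 were called without the block (4.31%, 1.58% higher). These probes are not independent, since 10 of the 17 read the same C3 transcript and 2 are the CFI probes tested through REST, so their share is given as a description. The 11 were the 10 C3 probes and 1 of the 2 CFD probes.

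**Figure D1:**
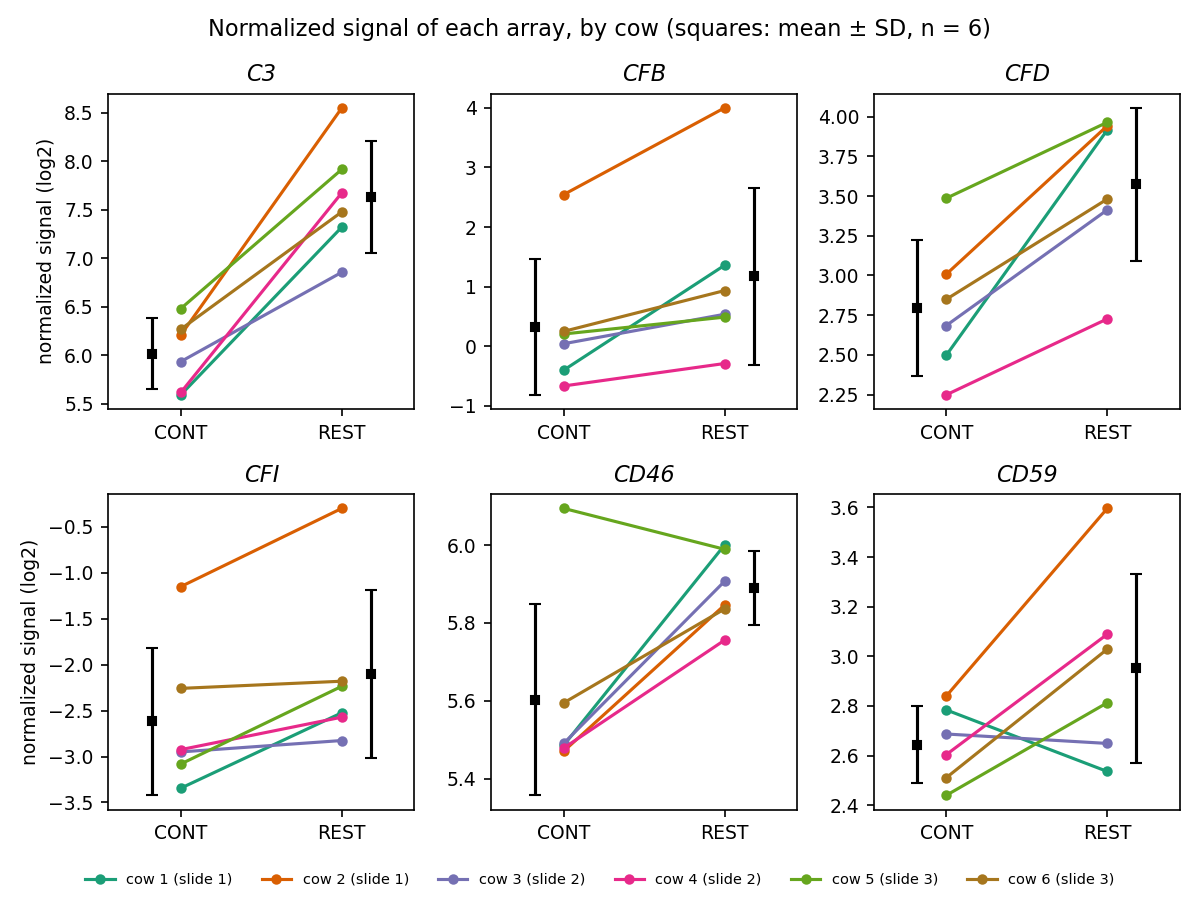
Normalized signal (log2 relative to the 75th percentile of the array) of the 6 tested complement genes in CONT and REST, with 1 line per cow joining its 2 arrays and squares with bars for the mean ± SD (n = 6). The C3 lines all rise from a CONT range of 5.59 to 6.48 to a REST range of 6.86 to 8.55, whereas the CFB and CFI lines of cow 2 lie above those of the other cows in both periods.

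C3 encodes the central component, whose cleavage every activation route shares. On the probe with the highest signal, C3 (NM_001040469) lay between 5.59 and 6.48 in CONT, with a median of 6.07, and between 6.86 and 8.55 in REST, with a median of 7.58. Every REST array lay above every CONT array, a separation seen for 0.618% of tested genes. The means were 6.02 ± 0.36 and 7.63 ± 0.57 (SD, n = 6 each).

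The C3 change was 1.62 ± 0.18 (SE), a 3.07-fold higher signal in REST (limma, adjusted p = 0.00465), and it was the 9th largest rise among the 7932 tested genes. It was also called without the block (adjusted p = 0.00719). Cow by cow, the rise was 1.73, 2.34, 0.92, 2.06, 1.44 and 1.21 in cows 1 to 6. Cow 2 thus had the largest rise and cow 3 the smallest, and the C3 level of cow 2 before restriction was within the range of the other cows. By slide, the mean rise was 2.04 for cows 1 and 2, 1.49 for cows 3 and 4, and 1.32 for cows 5 and 6. With each cow left out in turn the change stayed between 1.47 and 1.76 (adjusted p from 0.00664 to 0.0234), and without both cows 1 and 2 it was 1.41 (adjusted p = 0.0662).

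All 10 C3 probes are assigned to the same transcript, so they are repeat readings of 1 mRNA and not independent genes. All 10 were tested and called, and CONT and REST overlapped on none of them, where REST lay wholly above CONT for 0.747% of all tested probes. Their changes ran from 1.62 to 1.96, or 3.07-fold to 3.90-fold, with adjusted p from 0.00465 to 0.00746, and without the block from 0.00579 to 0.0114. With a model-based background correction (normexp) of the raw spot intensities and the same percentile shift, all 10 were again called, with changes from 1.02 to 2.02.

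The order of the cows was much the same from probe to probe. Cow 2 had the largest rise on 9 of the 10 probes (2.34 to 3.24), and cow 4 had it on the remaining 1 (2.06 to 2.58 over the 10). Cow 3 had the smallest rise on all 10 (0.71 to 1.09). Cows 1, 5 and 6 lay between, with ranges of 1.42 to 1.93, 1.44 to 2.23 and 1.08 to 1.58. In REST cow 2 held the highest C3 level on 10 of 10 probes, and in CONT on 0 of 10.

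**Figure D2:**
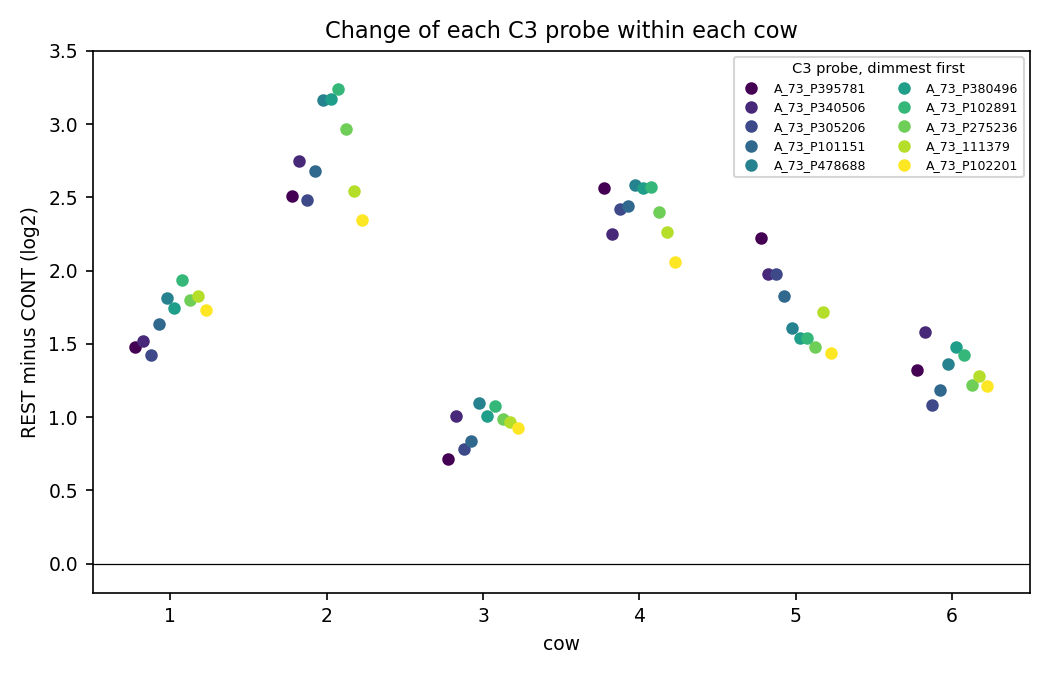
Change of the signal within each cow (REST minus CONT, log2, vertical axis) on the 10 C3 probes, with 1 point per probe, coloured from the dimmest to the brightest probe, and the cows along the horizontal axis. All points lie above 0, cow 3 is lowest at 0.71 to 1.09, and cow 2 reaches 3.24.

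CFB and CFD encode proteases that act in making the alternative pathway convertase: factor B, bound to C3b, carries its catalytic site, and factor D cuts the bound factor B. CFB (NM_001040526) lay between -0.67 and 2.54 in CONT, with a median of 0.12, and between -0.29 and 4.0 in REST, with a median of 0.73. The groups overlapped widely, and cow 2 had the highest array in both. The change of 0.84 ± 0.20 (SE) was a 1.79-fold higher signal (limma, adjusted p = 0.0411).

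The CFB rise was found in 6 of 6 cows but was unequal among them. It was 1.76 in cow 1 and 1.46 in cow 2, and from 0.28 to 0.69 in the other cows. Without cow 2 it was 0.72 and no longer called (adjusted p = 0.119), without cows 1 and 2 it was 0.46 (adjusted p = 0.148), and without the block the full set gave an adjusted p of 0.561. A second tested probe changed by 0.72 (adjusted p = 0.0745). The other CFB probes were well above background on at most 2 of 6 arrays of a group and were not tested.

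CFD (NM_001034255) lay between 2.25 and 3.49 in CONT, with a median of 2.77, and between 2.73 and 3.96 in REST, with a median of 3.70. The groups overlapped, and cow 4 had the lowest array in each. The change was 0.78 ± 0.13 (SE), a 1.72-fold higher signal (limma, adjusted p = 0.0152).

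CFD rose in 6 of 6 cows, by 1.42 in cow 1, 0.93 in cow 2 and 0.73 in cow 3, and by 0.48 to 0.63 in the other cows. It was called with each cow left out and without both cows 1 and 2 (0.58, adjusted p = 0.0917). The second CFD probe rose by 1.02 ± 0.17 (SE, adjusted p = 0.0149). Without the block, the second probe was called (adjusted p = 0.0889) and the brighter one was not (adjusted p = 0.109). Factor D is also known as adipsin, an abundant product of fat cells, and the fat cell markers are given below.

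CFI encodes factor I, the plasma protease that cuts C3b and C4b with the help of cofactors and so limits the convertase. On the brighter tested probe, CFI (NM_001038096) lay between -3.34 and -1.15 in CONT, with a median of -2.94, and between -2.83 and -0.30 in REST, with a median of -2.38. The groups overlapped, cow 2 was highest in both, and the probe was well above background on 4 of 6 CONT and 6 of 6 REST arrays, the group with the higher share of such spots overall in 5 of 6 cows. The change was 0.51 ± 0.13 (SE, limma, adjusted p = 0.0501).

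The second tested CFI probe gave a larger change, 1.80 ± 0.18 (SE, adjusted p = 0.0046), from -4.80 to -0.82 in CONT and from -3.19 to 0.51 in REST. Only 2 of 6 CONT arrays had it well above background, against 6 of 6 REST arrays, so most of its CONT values lie where the scanner could not separate it from background. Per cow this probe rose by 1.02 to 2.60, and the brighter one by 0.08 to 0.85. With normexp and the percentile shift, the brighter probe changed by 0.03 (adjusted p = 0.907) and neither probe was called. With normexp and quantile normalization the brighter probe changed by 0.22 (adjusted p = 0.105) and the other was called (0.55, adjusted p = 0.0143). Leaving out cow 1, 2 or 4 also ended the call of the brighter probe (adjusted p = 0.126, 0.148 and 0.11), as did leaving out the block (adjusted p = 0.594).

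**Figure D3:**
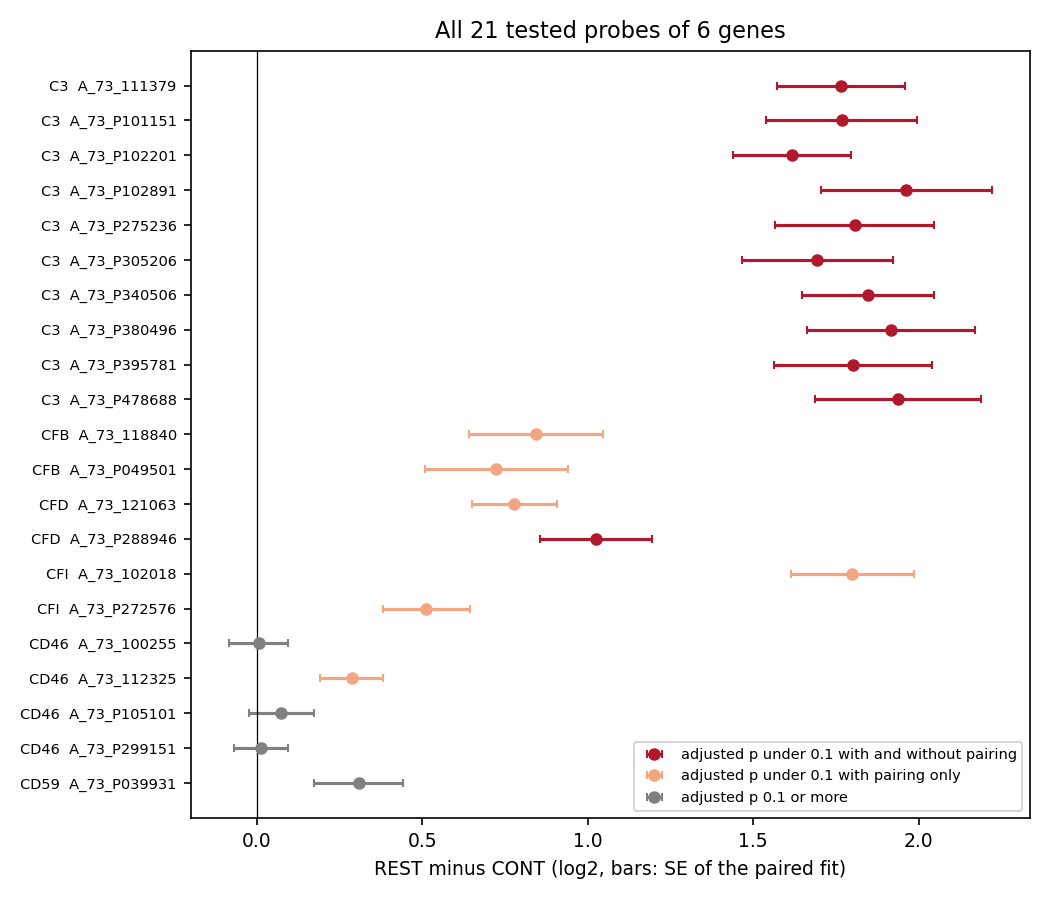
Change of the signal (REST minus CONT, log2) with its SE for every tested probe of the complement genes, grouped by gene and coloured by whether the call held with and without pairing by cow. The 10 C3 probes cluster at 1.62 to 1.96, the 2 CFI probes stand apart at 0.51 and 1.80, and the 4 CD46 probes range from 0.01 to 0.29.

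The membrane regulators protect the tissue's own cells: CD46 is the cofactor with which factor I destroys C3b, CD55 speeds the decay of convertases, and CD59 blocks the membrane attack complex. On its brightest probe CD46 (NM_001242561) lay between 5.47 and 6.09 in CONT, with a median of 5.49, and between 5.76 and 6.00 in REST, with a median of 5.88. Cow 5 held the highest CONT array, and the other CONT arrays were below every REST array. The change was 0.29 ± 0.10 (SE, adjusted p = 0.0965), higher in 5 of 6 cows, and cow 5 changed by -0.10.

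The CD46 probes did not share this change. They are assigned to 3 different transcripts, and the other 3 probes changed by 0.01 to 0.07 with adjusted p of 0.654 or more, 1 of them on the same transcript as the brightest. The call of the brightest was lost when cow 1, 2, 3, 4 or 6 was left out (adjusted p from 0.142 to 0.226), when both cows 1 and 2 were left out (0.21, adjusted p = 0.445), without the block (adjusted p = 0.231), and for the mean over the 4 probes (0.09, adjusted p = 0.406).

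CD59 (NM_001037446) lay between 2.44 and 2.84 in CONT, with a median of 2.65, and between 2.54 and 3.60 in REST, with a median of 2.92. The groups overlapped. The change of 0.31 ± 0.13 (SE) did not pass the test (limma, adjusted p = 0.179), with cow 2 at 0.76 and cows 1 and 3 at -0.25 and -0.04. Both CD55 probes were well above background on 0 of 12 arrays, so no change of CD55 could be read.

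The receptors of the C3a and C5a fragments, C3AR1 and C5AR1, are carried mainly by myeloid cells. C3AR1 was well above background on 4 of 6 CONT and 4 of 6 REST arrays, between -3.05 and -2.14 in CONT and between -3.32 and -1.88 in REST. The groups overlapped, and per cow the difference ran from -0.53 to 1.02 with no test. The 3 C5AR1 probes were well above background on 0 of 12 arrays.

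Among the other genes of the alternative pathway and its regulators, 9 of 10 had a probe, 4 were tested and 1 was called, higher in REST. Of all tested genes 16.2% were called and 6.95% called higher. That gene was CLU, which encodes clusterin, an extracellular chaperone that also holds back the membrane attack complex. CLU had a median of 4.85 in CONT and 5.83 in REST, with overlapping arrays, and rose by 0.99 ± 0.15 (SE, adjusted p = 0.0103). It was higher in 6 of 6 cows, by 0.61 to 1.59, and was called without the block (adjusted p = 0.0787), with each cow left out, and without cows 1 and 2 (0.75, adjusted p = 0.0881). CFP, the convertase stabilizer properdin, differed by -0.12 and ITGB2, a chain of complement receptors on leukocytes, by 0.16, and neither was called. CR2, VTN, C5AR2 and ITGAM were not well above background on any array.

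Of the terminal components, which build the membrane attack complex, 6 of 7 had a probe and only C7 was tested. C7 lay between -1.01 and 0.05 in CONT and between -0.42 and 0.74 in REST and rose by 0.48 ± 0.14 (SE, adjusted p = 0.0667), higher in 5 of 6 cows. This call was lost when cow 2, 3, 4, 5 or 6 was left out (adjusted p from 0.112 to 0.174) and without the block (adjusted p = 0.28). C8A, C8B and C9 were not well above background on any array.

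Of the classical and lectin pathway genes, 16 of 17 had a probe and 9 were tested, with a median change of 0.05. Of the 9, 2 were called higher and 1 lower, beside 6.95% of all tested genes called higher and 9.27% called lower. C4A, the C4 component of the convertase of those routes, rose by 0.99 ± 0.23 (SE, adjusted p = 0.038), and the cow with the largest rise was cow 2, at 2.24, from 3.43 to 5.67. Near-identical C4 copies exist in cattle genomes, so the C4A probe may read more than 1 gene. SERPING1, the C1 inhibitor, rose by 0.69 ± 0.13 (SE, adjusted p = 0.0212), in 6 of 6 cows. C1QA, a chain of C1q made by macrophages, fell by 0.47 ± 0.11 (SE, adjusted p = 0.0375), in 6 of 6 cows. With the cow as a random block limma did not call C1QA (adjusted p = 0.23), but called C4A (adjusted p = 0.0988) and SERPING1 (adjusted p = 0.0667). Without the block limma called 0 of the 9, also at an unadjusted p under 0.05, without cows 1 and 2 it called 0 of the 9 as well, and without cow 4 the calls of C4A (0.97, adjusted p = 0.106) and C1QA (-0.42, adjusted p = 0.112) were lost. C2, which lies beside CFB in the RefSeq gene order and is its counterpart in the classical convertase, differed by 0.27 ± 0.10 (SE, adjusted p = 0.13), and NELFE, on the other side of CFB, by -0.01.

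**Figure D4:**
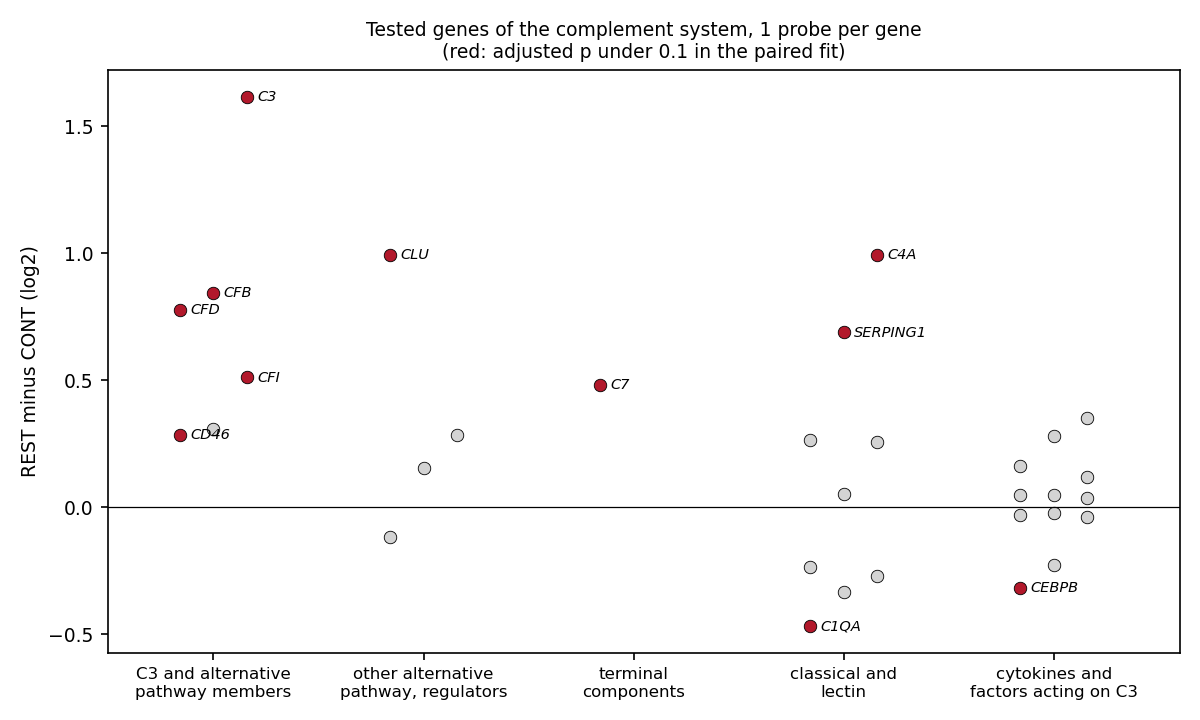
Change of the signal (REST minus CONT, log2, vertical axis) for the tested genes of each complement list and of the list of cytokines and factors that act on C3, 1 probe per gene, with called genes in red and named and the others in grey. C3 is the largest change at 1.62, CLU and C4A lie near 0.99, and C1QA is called lower at -0.47.

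Proinflammatory cytokines and the factors NF-kappaB, STAT3 and C/EBP are known from other tissues to act on C3 transcription. Of 17 such genes 12 were tested, and limma called 0 higher, also at an unadjusted p under 0.05, and 1 lower, with a median change of 0.04. Of all tested genes 6.95% were called higher and 9.27% lower. The gene called lower was CEBPB, encoding a C/EBP transcription factor, at -0.32 ± 0.09 (SE, adjusted p = 0.0555). That call was lost without cow 1, 2 or 3 (adjusted p = 0.109, 0.161 and 0.101) and without the block (adjusted p = 0.236). IL1B changed by 0.04, TNF by 0.05, STAT3 by -0.03 and CEBPD by 0.28, and none was called. IL6, IFNG and SOCS3 were not well above background on any array.

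Of 17 acute phase and mastitis genes 8 were tested and 2 were called higher, beside 6.95% of all tested genes called higher. The median change was 0.43, against -0.01 over all tested genes, and 1 of the 8, PTX3, was well above background on 5 of 6 CONT and 6 of 6 REST arrays and so was tested through REST. LTF, the iron-binding milk protein lactoferrin, rose by 0.45 ± 0.12 (SE, adjusted p = 0.0507), and PIGR, the receptor that carries immunoglobulin A into milk, by 0.44 ± 0.15 (SE, adjusted p = 0.0963). The LTF call was lost without cow 1, 2 or 4 (adjusted p = 0.114, 0.127 and 0.102), the PIGR call without cow 1, 2, 4, 5 or 6 (adjusted p from 0.121 to 0.237), and both without the block. With the cow as a random block limma called LTF (adjusted p = 0.0416) but not PIGR (adjusted p = 0.138).

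SAA3, a serum amyloid A made by the mammary epithelium and raised in mastitis, differed most between cows. In CONT it was 6.26 in cow 2 and between 0.29 and 3.63 in the other cows. In REST it was 7.36 in cow 2 and 4.64 in cow 1, which had risen by 4.35. The other cows changed by 0.05 to 0.68, and the mean change of 1.15 ± 0.50 (SE) was not called (adjusted p = 0.177).

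LBP, which hands bacterial lipopolysaccharide to its receptor, changed by 2.26 in cow 1, 1.01 in cow 2 and -0.37 to 0.12 in the rest, and was not called (0.44, adjusted p = 0.399). Other genes of the list differed in cow 2 in the other direction, S100A12 by -1.20 and ITIH4 by -0.42. Cows 1 and 2 were also those with the largest CFB and CFD rises. With both left out, 2 of the 6 complement genes were called, C3 and CFD, and the calls over all tested probes went from 3105 to 236. The part of these cows in the complement changes was not tested.

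**Figure D5:**
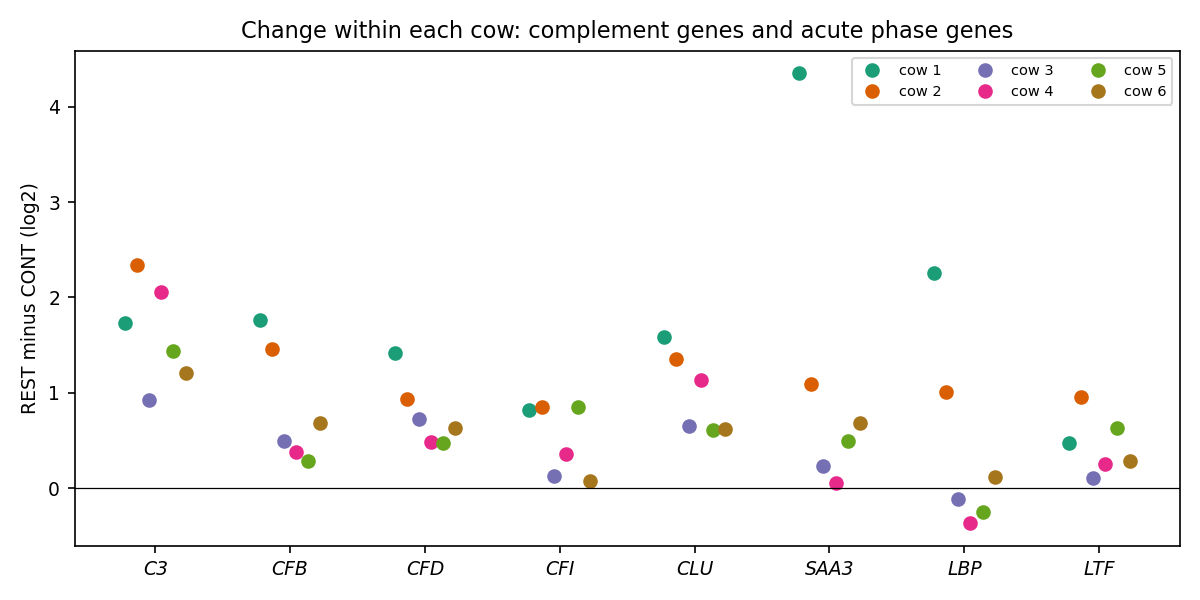
Change (REST minus CONT, log2) for complement genes (C3, CFB, CFD, CFI, CLU) and acute phase genes (SAA3, LBP, LTF), with 1 point per cow. C3 lies between 0.92 and 2.34 in every cow, while SAA3 rose by 4.35 in cow 1 and by 0.05 to 1.09 in the other cows.

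Markers of other cells in a biopsy were set beside these values, and their counts of calls stand beside 6.95% of all tested genes called higher and 9.27% called lower. The summed signal of the macrophage markers, relative to the 75th percentile, was 16.2 to 31.9 in CONT and 13 to 26.9 in REST. It was higher in REST in 2 of 6 cows. Of 8 tested genes limma called 0 higher (1 at an unadjusted p under 0.05) and 1 lower (C1QA). The C1QA call was lost without the block (adjusted p = 0.567) and with the cow as a random block (adjusted p = 0.23). CD163, well above background on 4 of 6 CONT and 6 of 6 REST arrays, was tested through REST. For neutrophil markers the sums were 1.31 to 2.15 and 1.08 to 1.72, higher in 2 of 6 cows, with 0 of 2 called, also at an unadjusted p under 0.05. FCGR3A, 1 of these 2, was well above background on 4 of 6 CONT and 6 of 6 REST arrays and so was tested through REST. CAMP was not well above background on any array. Leukocyte markers summed to 20.6 to 30.8 and 24.8 to 33 and were higher in 4 of 6 cows, with CORO1A (0.37) and CD3E (0.35) called higher among 8 tested. Neither was called without the block (adjusted p = 0.462 and 0.226), and CORO1A was not called with the cow as a random block (adjusted p = 0.142).

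The listed fat cell markers summed to 47.4 to 263 in CONT and 38.4 to 198 in REST and were higher in REST in 0 of 6 cows. This sum rests mostly on CIDEA (-0.27, limma, adjusted p = 0.0782), so it is in effect a reading of 1 gene. CIDEA was not called without the block (adjusted p = 0.816) or with the cow as a random block (adjusted p = 0.598). The only other tested marker, RBP4, differed by 0.19 and was not called. LEP (well above background on 2 of 6 CONT and 2 of 6 REST arrays) and CIDEC were not tested. PLIN1 was not well above background on any array and ADIPOQ had no probe. The amount of fat cells could thus not be read from these markers. The part of fat cells in the CFD change was not tested. Luminal epithelial markers summed to 233 to 325 and 256 to 338, higher in 4 of 6 cows, with KRT8 (0.72) and KRT18 (0.52) called higher among 6 tested. Neither was called without the block (adjusted p = 0.133 and 0.508), and KRT18 was not called with the cow as a random block (adjusted p = 0.188). Endothelial markers summed to 14.2 to 23.5 and 23 to 31.1 and were higher in 6 of 6 cows, with VWF (0.54) and CLDN5 (0.74) called higher among 6 tested. Of these 6, limma called 2 without the block and 2 with the cow as a random block, but 0 without cows 1 and 2. Myoepithelial markers summed to 96.2 to 189 and 87.1 to 174, higher in 1 of 6 cows, with CNN1 (-0.53) and ACTA2 (-0.38) called lower among 6 tested. The median change of the 6 was -0.04, with 3 higher and 3 lower, and KRT5 (0.25), OXTR (0.17) and MYH11 (0.10) had higher means in REST. Neither CNN1 nor ACTA2 was called without the block (adjusted p = 0.294 and 0.45), and ACTA2 was not called with the cow as a random block (adjusted p = 0.153). Of 6 fibroblast markers limma called 0 (2 were lower at an unadjusted p under 0.05). Their median change was -0.36, with 2 higher and 4 lower. They summed to 34.18 to 63.85 in CONT and 26.44 to 73.53 in REST, higher in REST in 3 of 6 cows. The part of the epithelial, endothelial, myoepithelial and fibroblast shifts in the complement changes was not tested.

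The genes whose signal followed that of C3 most closely over the 12 arrays were RASSF5 (Pearson r = 0.94), PLLP (0.93), CCNI (0.91), BOC (0.91) and CYB561 (0.91). These values are a description over arrays that share cows and include the difference between the groups. With the group means removed the values were 0.85, 0.82, 0.67, 0.57 and 0.69. Among the complement genes the values with C3 were 0.79 for CFD, 0.67 for CD46 and for CD59, 0.59 for CFI and 0.56 for CFB, and with the group means removed 0.54, 0.28, 0.55, 0.70 and 0.61. Of the genes next to C3 in the RefSeq order, GPR108 changed by 0.14 (adjusted p = 0.333), TRIP10 by 0.26, SH2D3A by -0.11 and CD70 by -0.27, and none was called.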

How the data were processed

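Per the file headers, the authors ran Agilent Feature Extraction 11.0.1.1. The values used were its deposited processed intensities, which are linear, corrected for background and spatial trend, and not scaled between arrays. The median intensities of each spot and its background were used for an alternative. The deposited series table repeated these values for all 45220 spots of an array. Repeat spots (50 probes) were averaged on the log2 scale, spots marked as outliers (1 to 13 per array) were dropped, and each array's 75th percentile over non-control spots was subtracted. Tested probes were those called well above background by the software throughout CONT or throughout REST. Symbols came from RefSeq transcripts (27131 of 43653 probes, 62.2%). Array grid and reference table follow different assemblies, so no positions are given.

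The comparison of REST with CONT used limma 3.58.1 in R 4.3.3, two-sided, with the cow as a fixed block and Benjamini-Hochberg adjustment over all tested probes (threshold 0.1). The labels give the animal of each array, and deviations from the group means correlated at 0.36 to 0.57 within cows and -0.33 to 0.13 between cows. The study's methods do not say whether its test was paired. Lists used 1 probe per gene, the tested probe with the highest mean signal. Named genes were all 9 complement genes and at most 4 called members of each list. For 1 listed gene no value is reported here, but it is part of the list's counts. The members and lists were chosen with earlier results of these data known, and genes outside that rule were chosen after their values were seen. Python 3.11.15, pandas 2.3.3 and matplotlib 3.10.9 read the files and drew the plots. On simulated arrays, the cow-blocked fit recovered 38.5% of changed probes at a log2 change of 0.5, 91.5% at 1 and 96.5% at 1.5. The fit without the block recovered 2.5%, 77% and 93.5%. Of the calls, 8.33% to 9.39% fell on unchanged probes with the block, and 0.532% to 16.7% without it. The simulation changed 200 of 19398 probes by the same size in every cow. In these data 16.0% of tested probes were called and changes differed between cows, so its rates may not hold here. Alternatives covered the block, normalization, normexp background correction (on the median spot intensity), the filter on dim probes, marked spots, moderation, the probe choice and each cow left out. The number of arrays limits the precision.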

Additional observations from a re-analysis of the deposited data

Results flagged for a closer look

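In 18 groups of 6 values (CONT, REST and change of each of the 6 tested complement genes), 3 held an array far from the others, where chance gives about 1 in 20 groups, or 0.9 here. The measure is the gap to the nearest other cow divided by the whole range, and each exceeded Dixon's critical value for 6 values. CFB in CONT was 2.54 in cow 2 and -0.67 to 0.25 in the other cows (0.715). CFI in REST was -0.30 in cow 2 and -2.83 to -2.18 in the others (0.745). CD46 in CONT was 6.09 in cow 5 and 5.47 to 5.60 in the others (0.802). Cow 2 was highest on both tested CFB probes and both tested CFI probes in each period, and among the 8 tested acute phase and mastitis genes it was highest for 3 in CONT and for 2 in REST.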

How the results depend on the processing

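C3 kept its direction and its call under all 30 alternatives, with a change of 1.41 to 1.81 and adjusted p from 0.000471 to 0.0662. With each cow left out it was 1.47 to 1.76 (adjusted p from 0.00664 to 0.0234), and without the replicate block, where the change itself cannot differ, adjusted p ran from 0.0154 to 0.0504. The number of complement genes called, 5 of 6 with the cow as a block, was 1 with no replicate block, 3 with the cow as a random block, and 2 with the slide as a fixed block. It was 2 without moderation, 2 of 9 tested with no filter on dim probes, and 3 at an adjusted p under 0.05. With each cow left out it was 2 to 5 with the block and 1 to 2 without it. It was also 2 without cows 1 and 2 and 5 without the slide of cows 5 and 6, alternatives that were chosen after seeing the data, as was leaving out cows without the block. The other alternatives gave 4 or 5. CFB was not called in 13 of 30 alternatives, CFD in 6 of 30 (all without the block), CFI in 18 of 29 and CD46 in 18 of 30. CD59 was called in 1, normexp with the percentile shift (0.40, adjusted p = 0.0544). No change of sign occurred in any of these. Why the alternatives differ was not tested. Without the block, all tested probes called fell from 3105 (16.0%) to 837 (4.31%). Signal over background limits CFI, C3AR1, C5AR1 and CD55, and no interval from counting exists for array signals.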
